A study of Mus musculus with 8 samples.

Results

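The genes described here are 47 ligands, receptors, antagonists, Smads and Id targets of the BMP, TGF-beta and activin pathways, measured in newborn mouse epidermis with and without Eed. They were chosen by name, and each was found through the RefSeq accession of its array probes, among 36799 genes and other targets on the array. The list holds 16 BMP and GDF ligands, 5 TGF-beta and activin ligands, 9 receptors, 5 antagonists, 8 Smads and 4 Id genes. Of the 47, 40 gave a signal strong enough to be tested.

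BMPs, TGF-betas and activins are secreted dimers that bring together type I and type II receptor kinases at the cell surface. The type I receptor then phosphorylates receptor Smads: Smad1, Smad5 and Smad9 downstream of BMPs, and Smad2 and Smad3 downstream of TGF-betas and activins. These enter the nucleus with the common partner Smad4, while Smad6 and Smad7 inhibit the pathway from inside the cell and noggin, chordin, gremlin and follistatin bind ligands outside it. In skin, BMP signaling and its inhibition by noggin are known to govern hair follicle induction and hair shaft differentiation, TGF-beta restrains keratinocyte proliferation, and activin acts in wound repair.

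Total RNA came from the back skin epidermis of newborn (P0) C57BL/6 mice, 4 EED cKO and 4 control samples that the labels call biological replicates. In EED cKO mice (K14-Cre; EED flox/flox) the Krt14 promoter drives Cre, so Eed, a subunit of the histone methyltransferase complex PRC2, is deleted in keratinocytes and in the cells that arise from them. The control is labelled CTL, and neither its alleles nor whether a sample is 1 animal or a pool was stated for these arrays. The epidermis was freed with dispase and dissociated with trypsin, with no treatment of the mice, and was not sorted, so fewer cells of a type and less RNA per cell cannot be told apart in these values. Each sample shared an Agilent 2-color array with Universal Mouse Reference RNA, which is a commercial RNA pool common to the 8 arrays, with the sample in Cy3 on replicates 1 and 3 and in Cy5 on replicates 2 and 4. Every value below is a log2 ratio of sample over this reference, on which 1 unit is a 2-fold difference, and a log2 fold change is EED cKO minus control. Background correction draws dim probes toward a ratio of 0, so differences of weakly expressed genes are understated.

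Eed itself was lower on all 4 EED cKO arrays, with log2 ratios of -1.74, -2.04, -1.78 and -1.66 against -0.18, -0.46, -0.31 and -0.43 in control (log2 fold change -1.46 with a standard error, SE, of 0.09, limma adjusted p = 2.12e-05). In the sample channel, 53.3% to 65.5% of spots were well above background on EED cKO arrays and 51.5% to 65.4% on control arrays, with 0 saturated spots. All 8 arrays were on 1 slide, EED cKO in the first row and control in the other, so the slide row and the genotype cannot be told apart. Control replicates 2 and 3 stood apart in Y-linked genes, with mean log2 ratios of 1.19 and 1.02 against -1.51 to -1.31 on the other 6 arrays.

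Markers of several cell types also differed between the genotypes. All 6 Merkel cell markers were higher in EED cKO, and the normalized sample intensity summed over the tested markers was 1955 to 2380 in EED cKO and 1226 to 1602 in control. Of 7 basal keratinocyte markers, Trp63, Itga6, Itgb4 and Col17a1 were lower and Krt5, Krt14 and Krt15 did not pass the test, with a summed intensity of 223727 to 265452 in EED cKO and 272367 to 333072 in control. As ratios to the reference the basal markers overlapped, with a mean log2 ratio of 3.45 to 3.87 in EED cKO and 3.69 to 4.22 in control. Of 8 hair follicle markers, Krt27 was higher, Shh, Lef1 and Edar were lower and Krt25 was not tested (summed intensity 41477 to 53223 in EED cKO and 30411 to 37497 in control). Their mean log2 ratios also overlapped, at 1.71 to 2.07 in EED cKO and 1.70 to 2.33 in control. The summed intensities use the sample channel alone. For Krt17, the brightest hair follicle marker, the log2 fold change was 0.08, while the reference channel was higher by 0.58 on EED cKO arrays (limma adjusted p = 0.0956). For the basal markers Krt15 and Col17a1 the reference channel was lower by 0.71 and 0.78 (limma adjusted p = 0.0408 and 0.00545). Higher in EED cKO were also 3 of 6 immune markers (Cd3e, Cd74 and H2-Ab1, summed intensity 3597 to 5741 against 2093 to 3942, Cd207 not tested), Pecam1 and Kdr of 6 endothelial markers (4401 to 5872 against 2538 to 3982, the other 4 not tested) and Lum of 8 dermal fibroblast markers (27518 to 28967 against 26861 to 37706). Of the 4 endothelial markers not tested, Cdh5, Tie1 and Tek were well above background on 0 arrays and Emcn on 1 control array. No suprabasal, melanocyte, muscle or erythroid marker passed the test. The part of cell composition in the differences below was not tested.

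Of the 40 tested pathway genes, 18 differed between EED cKO and control at a limma adjusted p below 0.05, 6 higher and 12 lower in EED cKO. This is 45%, where 21.8% of all 23202 targets tested and 25.9% of those with a gene symbol differed (11.8% of all targets higher and 9.94% lower). The members were chosen with earlier results of these data known. The shares in this paragraph therefore describe the list and do not test it. The genes that rose were secreted ligands (Inhbb, Bmp3, Tgfb2, Bmp4), the antagonist Nog and the Id gene Id4. The genes that fell were mostly receptors (Tgfbr3, Acvr2b, Tgfbr1, Acvr2a, Bmpr1b, Bmpr1a) and receptor or common Smads (Smad1, Smad4, Smad3, Smad5), along with Bmp2 and Id1. Bmp3 and Inhbb alone changed at least 2-fold, 2 of the 40, where 1.22% of all targets did. In 13 of the 40 tested members, EED cKO and control arrays did not overlap, where this held for 17.2% of all targets. These 13 were all among the 18 called members. The median log2 fold change was -0.01 over the tested members and 0.019 over all targets.

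The count moved with the handling of dye and with the arrays kept. The share of all targets that passed, 21.8% in the main fit, moved as well. With no dye term in the fit, 11 members passed, 6 higher and 5 lower, and 10.2% of all targets did. Those lost were Acvr2b, Bmpr1a, Bmpr1b, Smad1, Smad3, Smad4 and Smad5. Without control replicates 2 and 3, the controls that stood apart in Y-linked genes, 11 passed, 5 higher and 6 lower, and 11.1% of all targets did. With a Y-linked covariate, without control replicate 2 alone or without EED cKO replicate 4 alone, 13 passed, 6 higher and 7 lower in each case. Of all targets, 12.1%, 11.8% and 12.7% passed in these settings. Without EED cKO replicate 1, 14 passed, 6 higher and 8 lower, and 17.6% of all targets did. With each array centred on its median in place of loess, the split was 2 higher (Bmp3 and Inhbb) and 11 lower, and 11.0% of all targets passed.

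**Figure D1:**
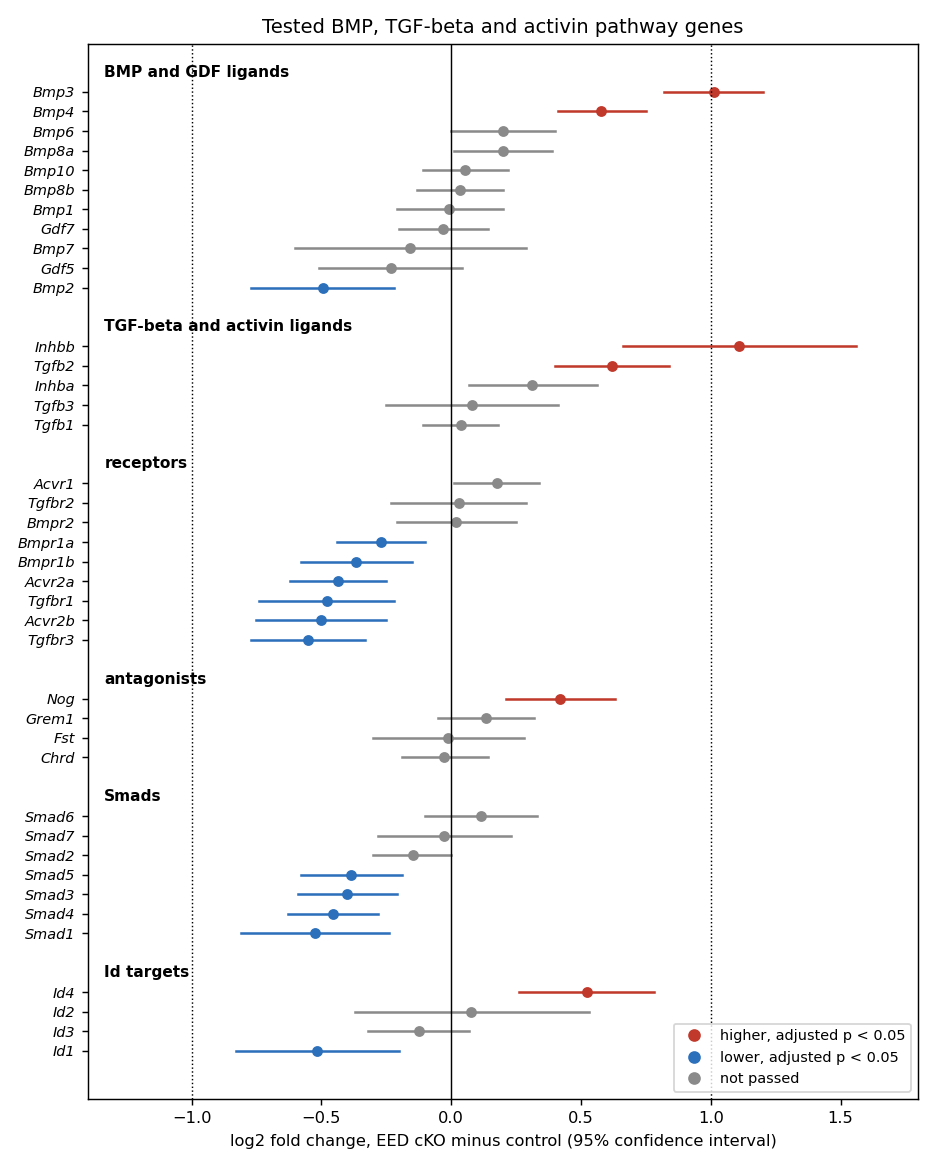
Log2 fold change of EED cKO over control (horizontal axis) for the 40 tested genes by class, with 95% confidence intervals from limma and dotted lines at 2-fold. Genes higher in EED cKO (red) lie among the ligands, antagonists and Id genes, and those lower (blue) lie mostly among the receptors and Smads, with log2 fold changes from -0.55 to 1.11.

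Among the 11 tested BMP and GDF ligands, Bmp3 and Bmp4 rose, Bmp2 fell, and the other 8 did not pass the test. Bmp3, an atypical BMP known to counteract other BMPs in bone, had log2 ratios of 1.30, 1.38, 1.32 and 1.20 on the EED cKO arrays and 0.07, 0.38, 0.30 and 0.40 on the control arrays. The lowest EED cKO array was 0.805 above the highest control array, and the control signal was well above background on 3 of 4 arrays. The log2 fold change came to 1.01 (SE 0.08; limma adjusted p = 0.000128; exact two-sided permutation p = 0.0286, the smallest that 4 against 4 arrays allow). This lay just past the 2-fold limit. It was 0.73 with median centring, 0.95 from the sample channel alone and 1.91 with the log ratio of the scanner software, and it passed the adjusted p in each of these.

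Bmp4, which signals through Smad1 and Smad5 in skin epithelium and dermis, gave log2 ratios of -1.05, -0.88, -0.96 and -0.92 in EED cKO and -1.64, -1.30, -1.67 and -1.52 in control. Every EED cKO value exceeded every control value (log2 fold change 0.58, SE 0.08, limma adjusted p = 0.00143). Its other probe, which was well above background on 0 arrays, gave -0.07. With median centring Bmp4 had a log2 fold change of 0.45 (limma adjusted p = 0.0517).

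Bmp2, the closest relative of Bmp4, moved the other way. Its log2 ratios were 4.50, 4.56, 4.93 and 4.60 in EED cKO and 4.94, 5.20, 5.03 and 5.40 in control, and the highest EED cKO array was below the lowest control array by 0.014. The log2 fold change came to -0.49 (SE 0.12; limma adjusted p = 0.0194). The direction turned with the scanner software's log ratio and with the deposited log2 table, where the log2 fold change was 0.13 (limma adjusted p = 0.661). The call was also lost without EED cKO replicate 1 (-0.45, limma adjusted p = 0.0562), replicate 2 (-0.44, limma adjusted p = 0.052) or replicate 4 (-0.46, limma adjusted p = 0.0668), and without control replicate 2 (-0.49, limma adjusted p = 0.0583).

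Of the other BMP and GDF ligands tested, Bmp6 and Bmp8a had the highest log2 fold changes, 0.20 each (limma adjusted p = 0.14 and 0.116), and Gdf5 the lowest, -0.23 (limma adjusted p = 0.21). Bmp7, a BMP of the epidermis and hair follicle, had a log2 fold change of -0.16 with a 95% interval from -0.60 to 0.29, and its difference was 0.27 on the Cy3 arrays and -0.59 on the Cy5 arrays. Bmp1, which is a procollagen protease and not a BMP-type ligand, Bmp8b, Bmp10 and Gdf7 lay between -0.03 and 0.05. Bmp15, Gdf6, Gdf10 and Gdf11 were well above background on 0 arrays, and Bmp5 was well above background on 1 EED cKO array.

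All 5 TGF-beta and activin ligand genes were tested, and 2 of them rose. Inhbb encodes the beta subunit of activin B. Its log2 ratios were -1.02, 0.35, -0.84 and -0.43 in EED cKO and -1.92, -1.32, -1.48 and -1.66 in control. Here too every EED cKO value exceeded every control value, with EED cKO replicate 2 the highest. The log2 fold change came to 1.11 (SE 0.20; limma adjusted p = 0.0055). Without EED cKO replicate 2 it was 0.89 and without control replicate 4 0.97, both below 2-fold and both past the adjusted p.

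Tgfb2, a TGF-beta of developing hair follicles, had log2 ratios of -1.09, -1.20, -0.91 and -1.44 in EED cKO and -1.64, -1.71, -1.74 and -2.03 in control. The groups did not overlap, and within each genotype replicate 4 was the lowest (log2 fold change 0.62, SE 0.10, limma adjusted p = 0.00289). Its other probe gave 0.51. With median centring the log2 fold change was 0.45 (limma adjusted p = 0.0735). Inhba, the activin A subunit, had a log2 fold change of 0.31 (limma adjusted p = 0.0713), which passed the test in a single setting, without control replicate 1 (0.42, limma adjusted p = 0.0109). Tgfb1 and Tgfb3 had log2 fold changes of 0.04 and 0.08, with 95% intervals from -0.11 to 0.18 and from -0.25 to 0.41.

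**Figure D2:**
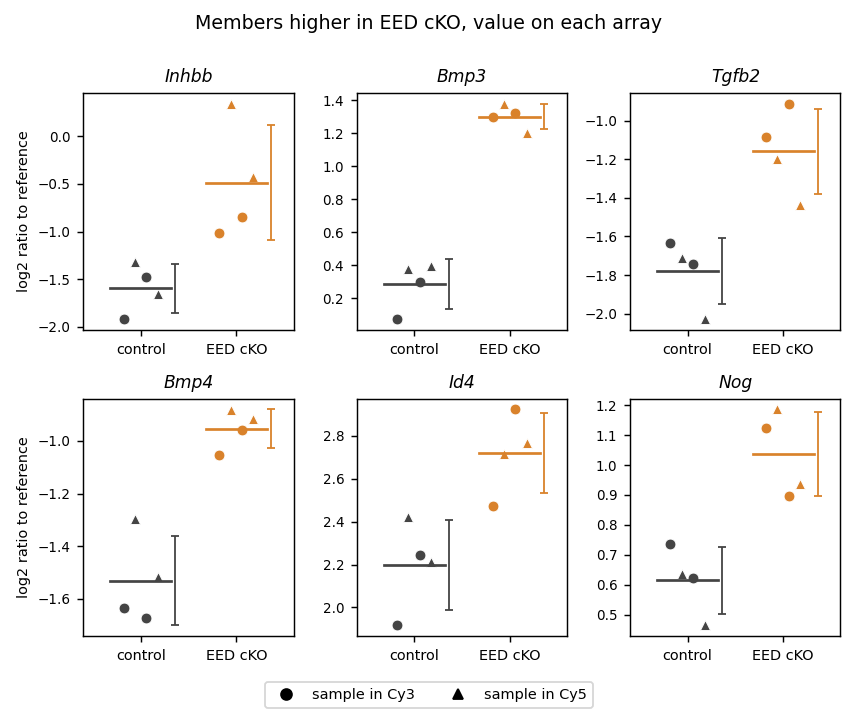
Log2 ratio to the reference (vertical axis, a separate scale for each gene) on each control and EED cKO array for the 6 members higher in EED cKO; circles are samples in Cy3, triangles samples in Cy5, horizontal lines group means and bars 1 SD (n = 4). In all 6 the groups do not overlap, by the widest margin relative to the spread in Bmp3, while Inhbb spreads most among EED cKO arrays (SD 0.61).

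Of the 9 receptors, 6 fell in EED cKO and none rose. Tgfbr3, or betaglycan, is the co-receptor that presents Tgfb2 to the kinase receptors. It gave log2 ratios of -2.39, -2.53, -2.38 and -2.88 in EED cKO and -1.90, -2.05, -2.06 and -1.98 in control, with no overlap (log2 fold change -0.55, SE 0.10, limma adjusted p = 0.00532). Tgfbr1, the type I receptor for TGF-beta, gave 0.39, 0.11, 0.24 and 0.06 in EED cKO and 0.73, 0.65, 0.43 and 0.92 in control, again with no overlap. Its log2 fold change came to -0.48 (SE 0.12; limma adjusted p = 0.0177), and -0.43 without EED cKO replicate 4 (limma adjusted p = 0.0628). A dim second probe of Tgfbr1 gave -0.13.

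Acvr2b, a type II receptor for activins, gave log2 ratios of -0.49, -0.34, -0.48 and -0.46 in EED cKO and -0.20, 0.41, -0.32 and 0.34 in control. The groups did not overlap, but the control arrays split by dye, and EED cKO was lower by 0.23 on the Cy3 arrays and by 0.78 on the Cy5 arrays. The log2 fold change came to -0.50 (SE 0.11; limma adjusted p = 0.013), and it did not pass without the dye term (limma adjusted p = 0.0759). The related type II receptor Acvr2a fell by 0.44 on the log2 scale (SE 0.08, limma adjusted p = 0.00652), with no overlap, while its other probe gave -0.14 and the median of the 2 probes -0.29 (limma adjusted p = 0.0884).

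Bmpr1b and Bmpr1a, the type I receptors for BMPs, of which Bmpr1a is needed for hair differentiation, fell by 0.37 and 0.27 on the log2 scale (limma adjusted p = 0.0241 and 0.0299). The other probe of Bmpr1b gave -0.53. EED cKO and control arrays overlapped in both. Bmpr1a did not pass without any of EED cKO replicates 1, 3 and 4 or control replicates 1, 2 and 4 (log2 fold changes -0.29 to -0.23), nor Bmpr1b without EED cKO replicate 1 or 4 or control replicate 1 or 4 (-0.34 to -0.31). The type II receptors Bmpr2 and Tgfbr2 had log2 fold changes of 0.02 and 0.03, with 95% intervals from -0.21 to 0.25 and from -0.23 to 0.29. The other probe of Tgfbr2 gave 0.22. Acvr1 was at 0.18 (limma adjusted p = 0.126), and its other probe gave 0.07.

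Of the 4 antagonists tested, Nog rose. Nog encodes noggin, which binds Bmp2 and Bmp4 and keeps them from their receptors. The mean log2 ratio was 1.04 ± 0.14 (SD, n = 4) on EED cKO arrays against 0.62 ± 0.11 (SD, n = 4) on control arrays, with no overlap (log2 fold change 0.42, SE 0.09, limma adjusted p = 0.0123). Nog was also the called member whose reference channel differed most between the genotypes, by 0.26 on the log2 scale (limma adjusted p = 0.347), and its sample channel alone gave 0.68. It did not pass with median centring (0.25, limma adjusted p = 0.285) or without control replicates 2 and 3 (0.43, limma adjusted p = 0.0584). Fst, which encodes follistatin, an antagonist of activins, gave log2 ratios of 2.66, 2.38, 2.71 and 2.28 in EED cKO and 2.46, 2.68, 2.25 and 2.68 in control. The groups overlapped, and the 95% interval of the log2 fold change ran from -0.30 to 0.28. Grem1 and Chrd, for gremlin and chordin, had log2 fold changes of 0.13 and -0.03 (limma adjusted p = 0.275 and 0.834), and Bambi was well above background on 0 arrays.

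Of the 7 Smads tested, 4 fell and none rose. Smad1, a receptor Smad of the BMP branch, gave log2 ratios of 0.32, 0.81, 0.36 and 0.35 in EED cKO and 0.54, 1.33, 0.94 and 1.14 in control. EED cKO replicate 2 lay above control replicate 1, so the groups overlapped. The log2 fold change came to -0.53 (SE 0.13; limma adjusted p = 0.0175), and -0.46 without control replicate 2 (limma adjusted p = 0.0629). Its other probe gave -0.26. Smad5, which acts beside Smad1, fell by 0.39 on the log2 scale (limma adjusted p = 0.0135) with no overlap, and had -0.35 without control replicate 2 (limma adjusted p = 0.0508). Its other probe gave -0.29.

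Smad4, the partner of all receptor Smads, gave log2 ratios of -0.42, 0.34, -0.30 and 0.18 in EED cKO and 0.05, 0.86, 0.08 and 0.62 in control. In both genotypes the 2 Cy5 arrays lay above the 2 Cy3 arrays, and within each dye EED cKO lay below control, by 0.43 in Cy3 and 0.48 in Cy5 (log2 fold change -0.45, SE 0.08, limma adjusted p = 0.00477). Without the dye term it did not pass (limma adjusted p = 0.223), and its other probe gave -0.18. Smad3, a receptor Smad of the TGF-beta and activin branch, fell by 0.40 on the log2 scale (limma adjusted p = 0.0109), with overlap, and a dim second probe gave -0.07. Smad2, of the same branch, had a log2 fold change of -0.15 (limma adjusted p = 0.145). The inhibitory Smads Smad6 and Smad7 had 0.12 and -0.03, with 95% intervals from -0.10 to 0.33 and from -0.28 to 0.23. Smad9 was well above background on 0 arrays.

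Without control replicates 2 and 3, Smad1, Smad3 and Smad5 did not pass the test, with log2 fold changes of -0.38, -0.34 and -0.36 (limma adjusted p = 0.13, 0.0618 and 0.0753), and neither did Bmp2 at -0.52, Bmpr1a at -0.30 and Id1 at -0.63 (limma adjusted p = 0.0735, 0.0921 and 0.052). Smad4, Tgfbr3, Tgfbr1, Acvr2a, Acvr2b and Bmpr1b passed.

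**Figure D3:**
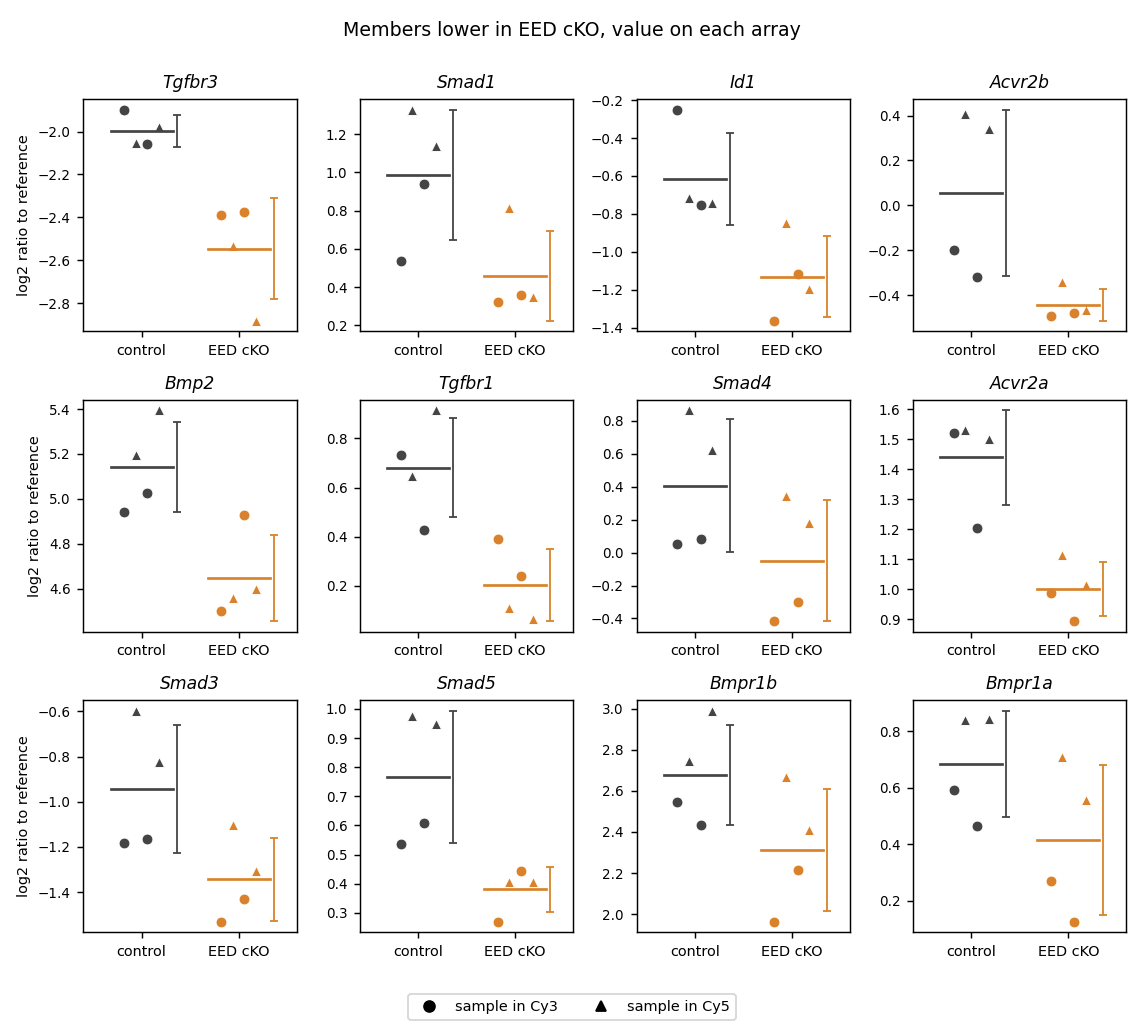
Log2 ratio to the reference (vertical axis, a separate scale for each gene) on each control and EED cKO array for the 12 members lower in EED cKO; circles are samples in Cy3, triangles samples in Cy5, horizontal lines group means and bars 1 SD (n = 4). Tgfbr3 and Acvr2a show EED cKO arrays below all control arrays, whereas the groups overlap in Smad1, Smad4, Smad3, Bmpr1b and Bmpr1a.

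The Id genes encode helix-loop-helix proteins without a DNA-binding domain that hold back bHLH factors, and they are classic targets of BMP signaling. The 4 did not move together. Id4 rose, with log2 ratios of 2.48, 2.72, 2.92 and 2.76 in EED cKO and 1.92, 2.42, 2.24 and 2.21 in control and no overlap (log2 fold change 0.52, SE 0.12, limma adjusted p = 0.0135). With median centring it was at 0.40 (limma adjusted p = 0.0581). Id1 fell, with log2 ratios of -1.36, -0.85, -1.12 and -1.20 in EED cKO and -0.25, -0.72, -0.75 and -0.74 in control, also with no overlap. Control replicate 1 lay well above the other controls, and the closest arrays of the 2 groups were 0.096 apart. The log2 fold change of Id1 came to -0.52 (SE 0.14; limma adjusted p = 0.03). Without control replicate 1 it was -0.37 and passed, but it did not pass without EED cKO replicate 1 (-0.42, limma adjusted p = 0.0813), replicate 3 (-0.52, limma adjusted p = 0.0716) or replicate 4 (-0.49, limma adjusted p = 0.09), or without control replicate 2 (-0.56, limma adjusted p = 0.0597). Id2 and Id3 had log2 fold changes of 0.08 and -0.13, with 95% intervals from -0.37 to 0.53 and from -0.32 to 0.07. With median centring Id3 was at -0.31 and passed (limma adjusted p = 0.0367).

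Promoters of Id genes are shown because BMP-activated Smads are known to control their transcription directly. The 250 bases before the RefSeq start (GRCm38.p6), 5′ to 3′ on the strand of the gene, are given for Id4, which rose, and for Id2 and Id3, which did not pass the test. For Id1, which fell, no such window was available. Capitals mark GGCGCC, the GC-rich element that Smad1 and Smad5 bind.
Id4 promoter, chr13:48260866-48261115, strand +: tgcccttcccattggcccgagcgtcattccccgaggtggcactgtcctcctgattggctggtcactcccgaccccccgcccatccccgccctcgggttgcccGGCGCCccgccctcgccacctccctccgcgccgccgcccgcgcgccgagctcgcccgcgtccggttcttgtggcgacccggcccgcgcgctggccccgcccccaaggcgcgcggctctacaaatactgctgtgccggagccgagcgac
Id2 promoter, chr12:25096093-25096342, strand -: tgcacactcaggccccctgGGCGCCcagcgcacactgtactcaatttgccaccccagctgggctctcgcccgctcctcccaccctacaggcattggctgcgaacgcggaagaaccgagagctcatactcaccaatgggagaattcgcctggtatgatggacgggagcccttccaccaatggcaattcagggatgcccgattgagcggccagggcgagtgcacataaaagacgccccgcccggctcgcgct
Id3 promoter, chr4:136143572-136143821, strand +: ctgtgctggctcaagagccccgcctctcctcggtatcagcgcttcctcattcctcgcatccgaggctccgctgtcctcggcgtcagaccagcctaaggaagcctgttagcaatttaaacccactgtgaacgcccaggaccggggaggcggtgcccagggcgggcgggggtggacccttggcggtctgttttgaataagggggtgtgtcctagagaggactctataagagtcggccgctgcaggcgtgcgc
GGCGCC, which reads the same on both strands, occurred once in Id4 and in Id2 and 0 times in Id3, and 9.6% of the 32851 windows of the same length hold it. CAGAC, a Smad-binding element, searched on both strands, occurred 2 times in Id3 and 0 times in Id4 and Id2, and 42.2% of windows hold it. The palindrome GTCTAGAC, which contains AGAC in both directions, was in none of the 3 windows, and 0.2% of windows hold it. These are matches of letters and carry no measurement of Smad binding.

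The direction of all 18 called members was the same on the Cy3 arrays (replicates 1 and 3) and on the Cy5 arrays (replicates 2 and 4), as it was for 30 of the 40 tested members. Each log2 fold change is the mean of these 2 differences, so a called member would seldom show opposite directions. The agreement is therefore no separate evidence for the calls. Of the 12 that fell, 9 differed more on the Cy5 arrays, and of the 6 that rose, 2 did. Bmp2 was lower by 0.27 in Cy3 and 0.72 in Cy5, and Id1 by 0.74 and 0.29. Inhbb was higher by 0.77 in Cy3 and 1.45 in Cy5, and Bmp3 by 1.12 and 0.90. In the reference channel, which holds the same RNA on each array, none of the 40 members differed between genotypes at a limma adjusted p below 0.05, while 116 of the 23202 targets did.

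**Figure D4:**
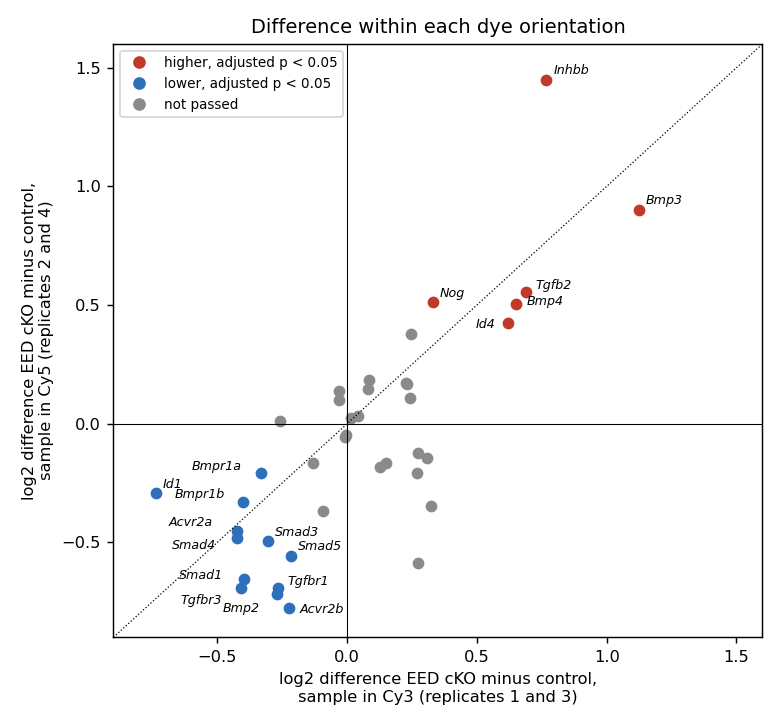
Mean log2 difference of EED cKO minus control on the 4 arrays with the sample in Cy3 (horizontal axis) against the 4 with the sample in Cy5 (vertical axis) for the 40 tested members; the dotted diagonal marks equal differences. The 18 called members lie in the upper right and lower left quadrants, and 9 of the 12 lower members lie below the diagonal.

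A further 79 genes of the pathways, from other ligands to intracellular regulators and target genes, were examined beside the members. Of these, 66 were tested, 9 rose and 10 fell, with a median log2 fold change of -0.005. This is 28.8%, near the 25.9% of targets with a gene symbol that differed, and 21.8% of all targets did. Among target genes, 3 of 11 rose and none fell. Cdkn2b, the CDK inhibitor p15 that TGF-beta induces, had log2 ratios from 0.64 to 0.91 in EED cKO and from -0.78 to -0.28 in control (log2 fold change 1.29, SE 0.11, limma adjusted p = 0.00012). Ccn2, connective tissue growth factor and a TGF-beta target, ranged from -1.92 to -0.90 in EED cKO and from -2.80 to -2.25 in control (log2 fold change 1.15, SE 0.15, limma adjusted p = 0.00126). These were the 2 of the 66 that changed at least 2-fold.

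Among the further co-receptors and receptors, 3 of 9 fell and none passed as higher. This is 33.3%, where 25.9% of targets with a gene symbol differed. The median log2 fold change of these 9 was 0.001, and that of the 9 member receptors was -0.365. Acvrl1 had the highest value, 0.24 (limma adjusted p = 0.217). Rgmb, a GPI-anchored BMP co-receptor, ranged from 0.53 to 0.67 in EED cKO and from 1.06 to 1.91 in control (log2 fold change -0.93, SE 0.14). The activin type I receptor Acvr1b and the RGM receptor Neo1 also fell. Secreted modulators went both ways: Kcp, a chordin-like BMP modulator, rose by 0.74 and Fstl1, a follistatin-like protein, by 0.63 on the log2 scale, while Twsg1, which acts with chordin, fell by 0.54. Lefty1, an inhibitor of Nodal, rose by 0.59, and Nodal itself rose by 0.455 (limma adjusted p = 0.00479). Thbs1, thrombospondin, an activator of latent TGF-beta, fell by 0.89, but by 0.23 on the Cy3 arrays against 1.55 on the Cy5 arrays. It did not pass without EED cKO replicate 2, 3 or 4 or control replicate 2 or 4 (log2 fold changes -0.96 to -0.69). Of 18 intracellular regulators, Peli1 rose and Smurf2, Tab1, Rnf111 and Usp15 fell. Without control replicates 2 and 3, 13 of the further genes passed in place of 19, without control replicate 2 alone 11, and without EED cKO replicate 4 alone 12. Of all targets, 11.1%, 11.8% and 12.7% passed in these settings, in place of 21.8%.

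Across 23 other settings, in which processing was changed or arrays were left out, 17 of the 18 called members kept their direction in each, and Bmp2 was the exception. Some of these settings could not turn a direction. A change of only the filter, the dye term, the replicate block, the intensity trend or the test leaves each log2 fold change as it was. Normalization between arrays adjusted only the mean intensity of each spot and not its log2 ratio. It therefore had to give the same medians and counts as the main fit. Bmp3 passed the adjusted p in all 22 settings that tested it, Tgfbr3, Inhbb and Bmp4 in 22 of 23, and Bmpr1a in 10 of 23. The scanner software's log ratio and the deposited log2 table gave the same medians and counts, so they are not separate checks. These tallies therefore overstate the number of independent checks.

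**Figure D5:**
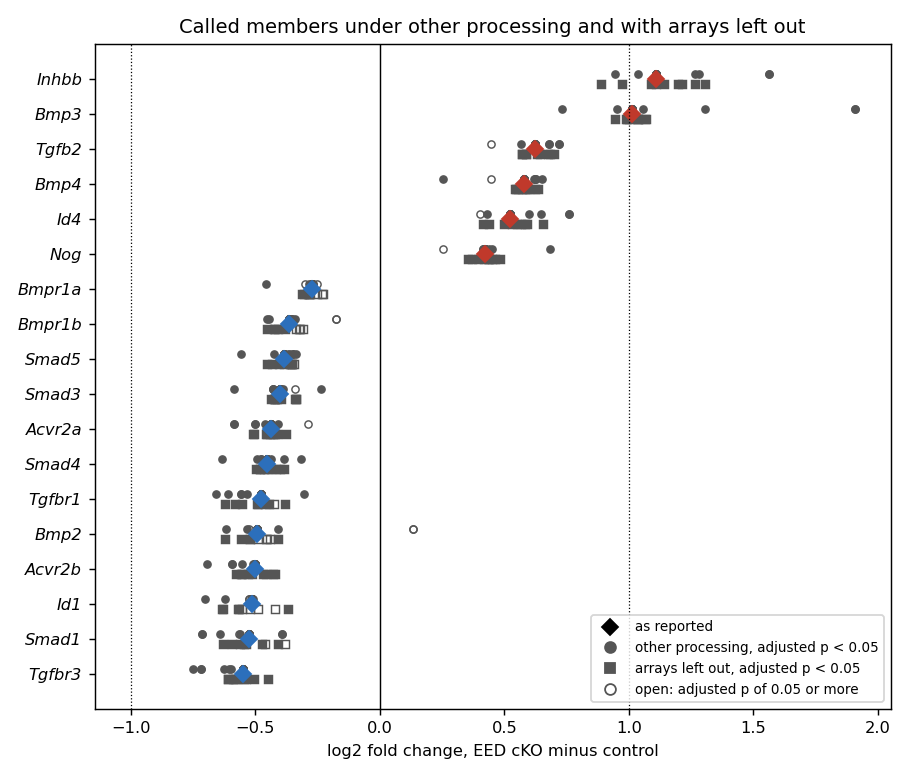
Log2 fold change (horizontal axis) of the 18 called members as reported (diamonds), under other processing (circles) and with arrays left out (squares), filled where the adjusted p was below 0.05 and open otherwise; dotted lines mark 2-fold. Bmp3 spans 0.73 to 1.91 with every point filled, and Bmp2 alone crosses 0.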

How the data were processed

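RNA from 4 EED cKO and 4 control epidermis samples was measured on 8 arrays. The authors scanned the arrays and deposited, per the file headers, Agilent Feature Extraction 12.0.1.1 output with spot and background intensity per channel, not normalized, processed intensity, and the software's own log10 ratio (Cy5 over Cy3, after background subtraction and dye normalization). The deposited series table holds log2 ratios, which equal the processed-signal log2 ratio of sample over reference within 7.33e-06. Here the median spot intensity was used, since the mean, planned first, is not in the columns used. It was background-corrected (normexp, offset 50) and loess-normalized within arrays in limma 3.58.1 (R 4.3.3). Swapped arrays were turned to sample over reference and flagged spots left out. Probes were named through RefSeq accessions (GRCm38.p6). The brightest probe stood for a gene, kept if well above background on 3 or 4 arrays of either genotype. In all, 19 missing values, none in a member, took the group mean.

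Genotypes were compared with lmFit and eBayes (genotype plus dye), adjusted by Benjamini-Hochberg over 23202 targets. The number of arrays limits the precision. Values on every array are given for members changed at least 2-fold, the 12 called members with the largest fold changes, and, in a class without any, the member of highest signal; up to 8 further pathway genes are named likewise, and other genes were named after their values were seen. The members and lists were chosen with earlier results of these data known. Replicate numbers pair the arrays by correlation only: deviations from the group means of same-numbered arrays correlated at 0.49, 0.68, 0.33 and 0.36, and 0.13 and 0.45 within dye. The number also marks the slide column and the dye. Alternatives changed background correction, normalization, values, filter, probe choice, dye term, replicate block, Y-linked covariate, intensity trend and test, and left out arrays.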

Additional observations from a re-analysis of the deposited data

Results flagged for a closer look

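In 80 groups of 4 arrays, 2 for each tested member, 4 held an array far from the other 3, as chance alone would give in about 1 of 20 groups. Smad1 on EED cKO replicate 2 had a log2 ratio of 0.81, where the other EED cKO arrays lay between 0.32 and 0.36. Id1 on control replicate 1 was at -0.25, where the other controls lay between -0.75 and -0.72. Acvr2a on control replicate 3 was at 1.20, where the other controls lay between 1.5 and 1.53. Chrd on control replicate 4 was at -0.10, where the other controls lay between 0.13 and 0.17.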

How the results depend on the processing

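Of the 18 members called at any fold change, 11 were called without the dye term, 11 without control replicates 2 and 3 together (an alternative chosen after seeing the data), and 2, Bmp3 and Bmp4, by the methods' t-test after adjustment, while leaving out each array in turn gave 13 to 18. The 2 members changed at least 2-fold became 0 with median centring, 1 from the sample channel alone, 1 with the filter that requires all 8 arrays well above background (Bmp3 was then not tested), 1 by the methods' t-test after adjustment (2 at its own unadjusted thresholds), and 0 to 2 with each array left out. Of the 66 further pathway genes tested, 19 passed, and 12 did with a Y-linked covariate, 5 by the methods' t-test after adjustment and 11 to 24 with each array left out. Eed stayed past the threshold in each setting, at -1.55 to -1.39 with each array left out. Bmp2 reversed to 0.13 with the Feature Extraction log ratio and to 0.13 with the deposited log2 table. With the replicate block, in place of the dye term, 18 members were called, and the pairing changed no count by over 1.5 times. Of all targets, 21.8% were called, 10.2% without the dye term, 11.0% with median centring, 11.1% without control replicates 2 and 3 and 3.97% by the t-test. The causes of these changes were not tested. With 4 arrays a genotype, Inhba and other members near the threshold remain undecided.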
